A study of Homo sapiens with 4 samples.

Results

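The splicing machinery was described in HCCLM3 cells, a human hepatocellular carcinoma line, carrying a control hairpin (shCtrl, n = 2) or a hairpin against KIAA1429 (shKIAA1429, n = 2). Genes were chosen by symbol alone, as those with a protein-coding transcript and a symbol that begins with HNRNP, U2AF, SNRP or SNRNP, or that is SRSF, SF3A or SF3B followed by a number. The rule used no measured value, but members, lists and roles were chosen with earlier results of these data known. It gave 63 of the 11665 genes with a listed protein-coding transcript, with 217 of the 38510 listed transcripts. RNA-seq of these cells was run to find genes downstream of KIAA1429 (VIRMA), the scaffold subunit of the complex that writes N6-methyladenosine (m6A) on messenger RNA. Both hairpins were stably carried, and the labels give no clone number or culture history. Nothing in the labels says that samples of a group came from separate cultures, so p-values measure only the spread between these samples, which may be technical. Values are FPKM, fragment counts scaled to transcript length and to the total mapped, summed over the protein-coding transcripts of a gene. The depth of each sample is unknown. The shCtrl samples are called controls and the shKIAA1429 samples knockdown samples.

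Introns are removed by the spliceosome, which assembles on each intron from small nuclear ribonucleoproteins (snRNPs). The U1 snRNP pairs with the 5′ splice site, U2AF reads the polypyrimidine tract and the AG at the 3′ splice site, and the SF3A and SF3B complexes hold the U2 snRNP on the branch site before the U4/U6.U5 tri-snRNP joins. SR proteins mostly promote the use of exons through exonic enhancers, whereas many hnRNP proteins coat nascent RNA and can block splice sites. Several of these proteins meet the m6A pathway: HNRNPC and HNRNPA2B1 bind m6A-containing RNA or the structures it opens, and SRSF3 and SRSF10 bind the nuclear m6A reader YTHDC1.

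The targeted gene was lower in the knockdown cells, without passing the test. VIRMA stood at 9.02 and 14.1 FPKM in the controls and at 5.81 and 8.52 FPKM in the knockdown samples (11.6 ± 3.62 against 7.17 ± 1.91, SD, n = 2 each). The groups did not overlap, and the log2 fold change was -0.61 ± 0.28 (SE, adjusted p = 0.897, limma on log2(FPKM + 1)). Of 10 hepatocyte lineage markers only SERPINA1 was listed, at 3.34 to 5.63 FPKM, and ALB, AFP and HNF4A were not, while the epithelial keratins KRT8 and KRT18 lay between 971 and 1176 FPKM and EPCAM and CDH1 were not listed. Of 6 markers of blood cells, fibroblasts and endothelium, CD68 was listed at 44.1 to 52.3 FPKM and COL1A1 at 3.54 to 6.76 FPKM, with overlapping groups, and PTPRC, COL1A2, PECAM1 and VWF were not listed. The listed values summed to between 370254 and 390224 FPKM per sample.

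Transcripts of the splicing machinery were abundant. Together the 63 genes took 3007 and 3447 FPKM in the controls and 2855 and 3428 FPKM in the knockdown samples, which is 0.812%, 0.921%, 0.732% and 0.897% of all listed FPKM. Replicate 2 of each group was the higher one, and the groups overlapped. All 63 genes passed the filter of at least 1 FPKM in at least 2 samples, and 55 of them lay above the median gene tested, at 7.87 FPKM. Means over the 4 samples ran from 3.0 FPKM for SNRNP48, a protein of the minor U12-type spliceosome, to 181 FPKM for HNRNPL, which binds CA-rich splicing silencers and enhancers. A mean of 100 FPKM was reached by 9 genes (HNRNPL, SNRPB, HNRNPK, HNRNPA1, HNRNPC, HNRNPA2B1, HNRNPUL1, SRSF9 and SF3B2), and 10 genes stayed under 10 FPKM.

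**Figure D1:**
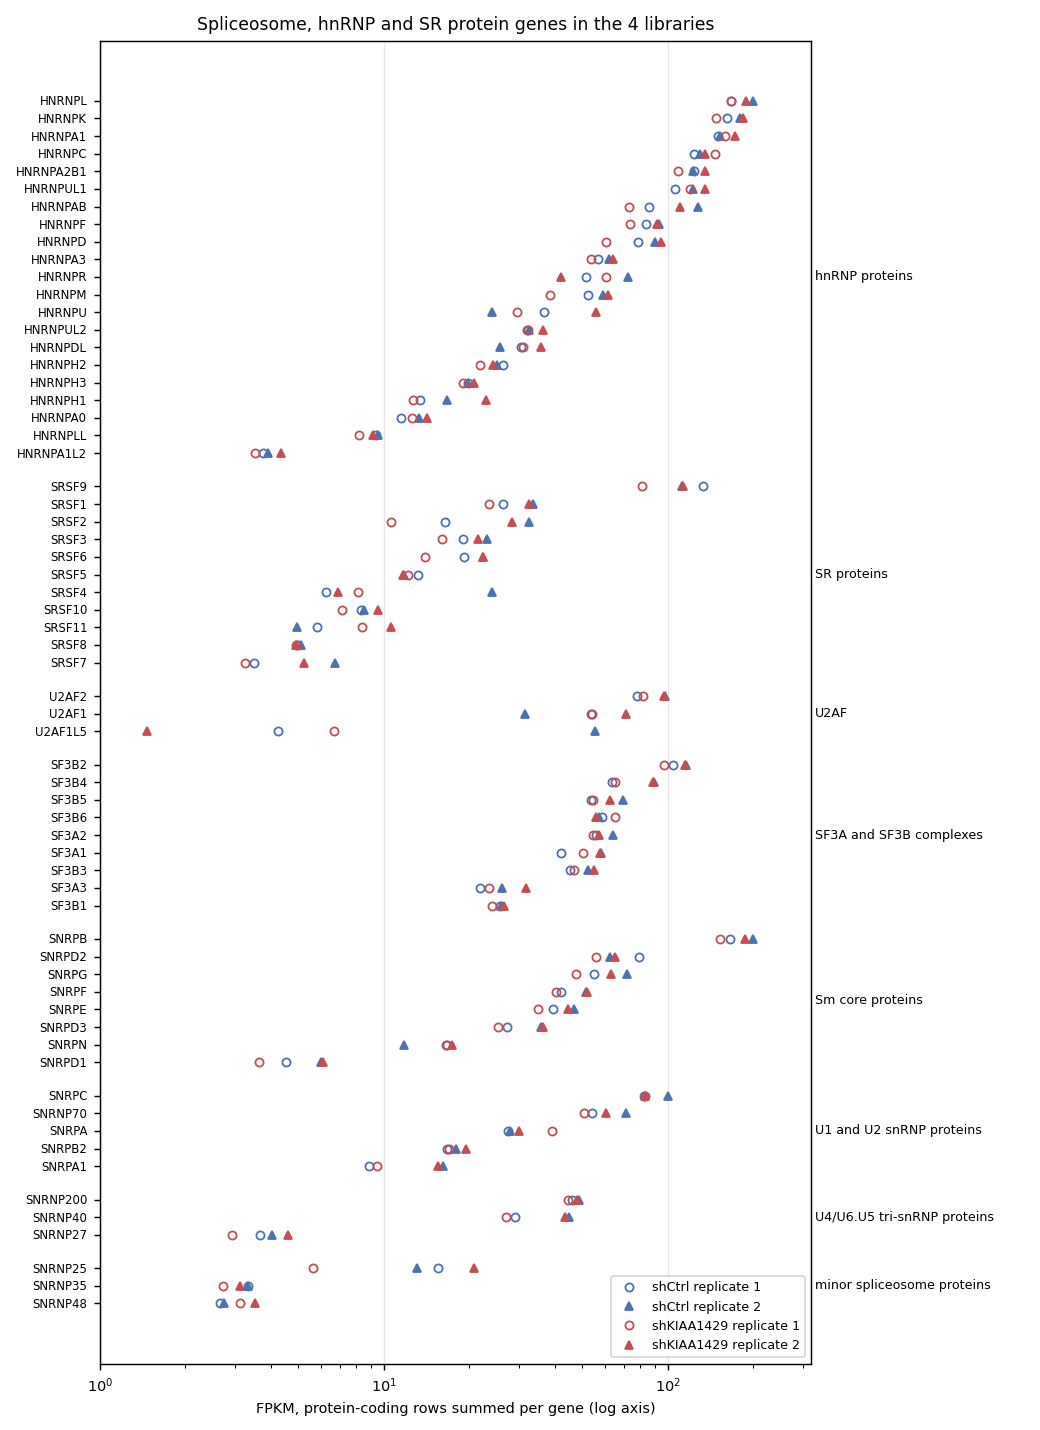
FPKM of each of the 63 splicing genes (log axis, protein-coding transcripts summed), grouped by role and ordered by mean, with 1 point per sample: blue for shCtrl, red for shKIAA1429, open circles for replicate 1 and filled triangles for replicate 2. For most genes the 4 points lie close together, with the filled triangles to the right of the open circles in 45 of 63 genes in both groups; U2AF1L5 and SRSF4 each have 1 shCtrl sample far above the others.

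The first comparison asked whether the level of any splicing gene differed between knockdown and control cells. The thresholds were those of the study's methods, an adjusted p under 0.05 and more than a 2-fold change either way. In limma on log2(FPKM + 1), 0 of 63 passed both, where 0 of 10781 genes of the whole table passed (0%). The study applied these thresholds to a count model (DESeq), another test and measure, so these zeros are not the outcome of its own test. At an unadjusted p under 0.05, 1 of 63 was higher in the knockdown samples (SRSF11, adjusted p = 0.671, limma), against 3.11% of all genes, and 0 of 63 were lower, against 2.82%. Both shKIAA1429 samples exceeded both shCtrl samples for 8 genes, 12.7% of the set against 16.6% of all genes tested: HNRNPA1, HNRNPC, HNRNPDL, SNRNP48, SNRPA, SNRPN, SRSF11 and U2AF1. Both lay below both shCtrl samples for 4 genes, 6.35% against 17.1% of all genes: HNRNPH2, HNRNPLL, SNRNP35 and SRSF8. Both shares were under the background.

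The intervals show how large a change these 4 samples could have hidden. The 95% interval of the log2 fold change lay within -1 to 1 for 55 of 63 genes, against 83% of all genes tested, and within -0.5 to 0.5 for 20 genes, against 26.1%. The median log2 fold change over the 63 genes was -0.042, beside -0.012 over all genes tested. Only U2AF1L5 had an absolute log2 fold change over 1 (1 of 63), against 1.25% of all genes. In all, 8 genes (HNRNPU, SNRNP25, SRSF2, SRSF4, SRSF7, SRSF11, U2AF1 and U2AF1L5) had an interval that reached beyond a 2-fold change.

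**Figure D2:**
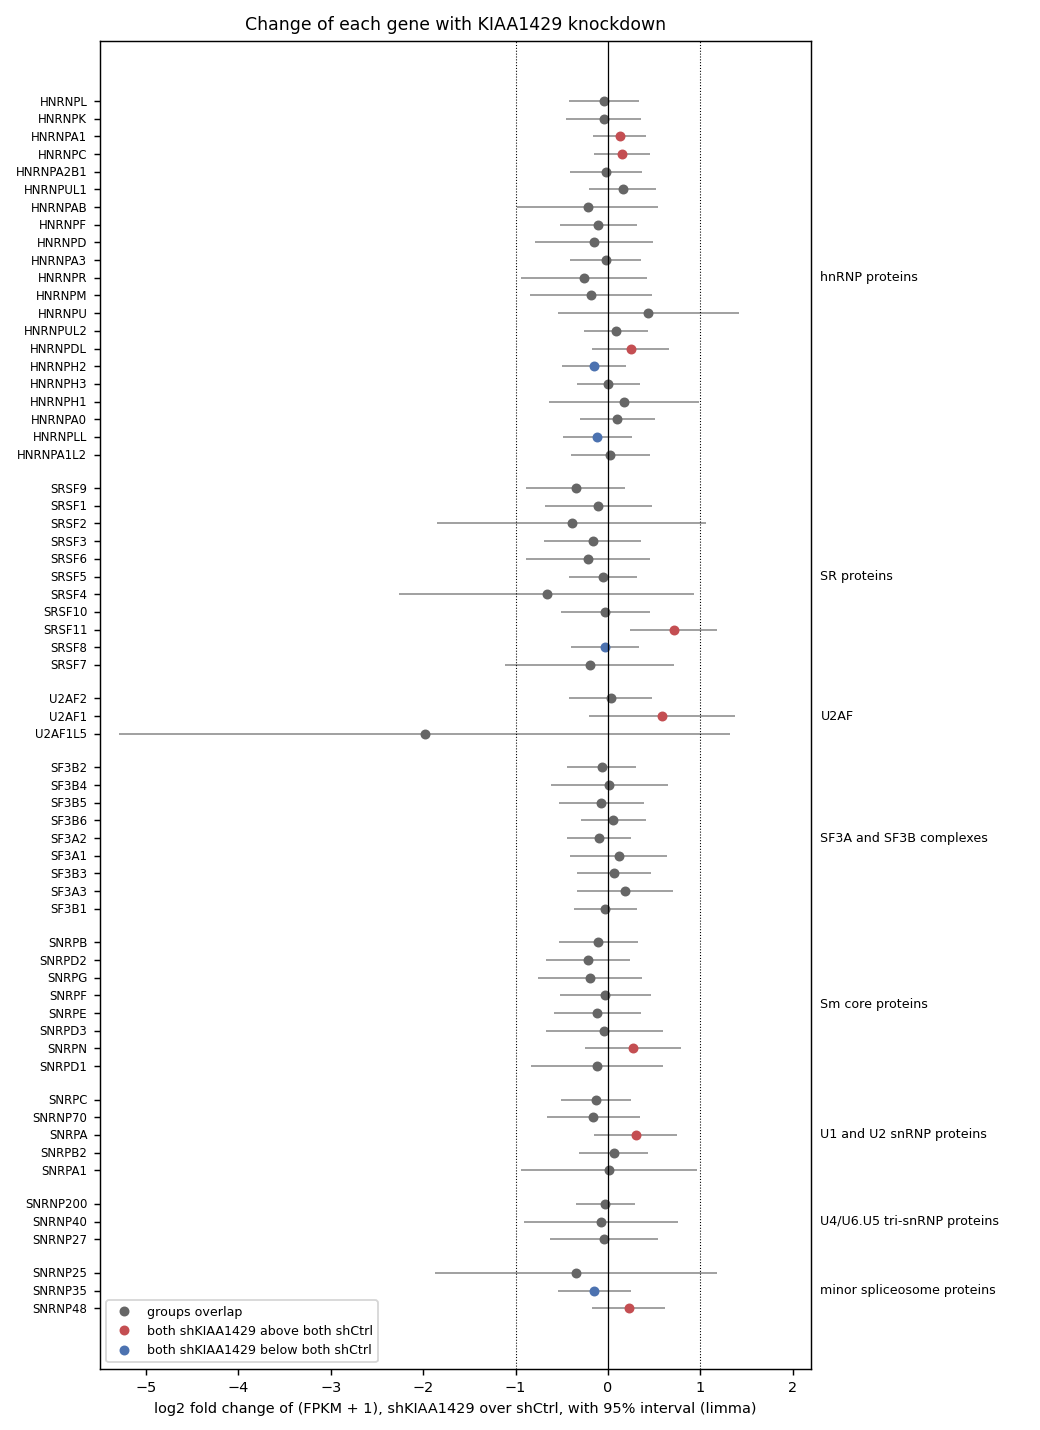
Log2 fold change of (FPKM + 1), shKIAA1429 over shCtrl, for each of the 63 splicing genes by role, with the 95% interval from limma (2 samples per group). Red points mark the 8 genes with both shKIAA1429 samples above both shCtrl samples, blue points the 4 with both below, and dotted lines a log2 fold change of -1 and 1; only the interval of SRSF11 leaves out 0, and no adjusted p was under 0.05.

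Among the 3′ splice site factors, the values of U2AF1 and U2AF1L5 went opposite ways. U2AF2, the large subunit that binds the polypyrimidine tract, was at 77.6 and 97.9 FPKM in the controls and at 82.0 and 96.7 FPKM in the knockdown samples, so its groups overlapped. U2AF1, the small subunit that contacts the AG, was at 53.7 and 31.5 FPKM and at 54.2 and 71.5 FPKM, with a log2 fold change of 0.59 ± 0.30 (SE, adjusted p = 0.919, limma). Replicate 2 of shCtrl was the low sample, and replicate 1 of shCtrl differed from the nearer shKIAA1429 sample by less than 1 FPKM. U2AF1L5, named here after its values were seen, is a near-identical copy of U2AF1 in a later genome build, and its single listed transcript covered chr21:44513152-44527634 on the minus strand, inside U2AF1 at chr21:44513066-44527697 (GRCh37). It was at 4.23 and 55.6 FPKM in the controls and at 6.65 and 1.47 FPKM in the knockdown samples, with a log2 fold change of -1.99 ± 1.26 (SE, adjusted p = 0.938, limma). The high sample of U2AF1L5 was thus the low sample of U2AF1. Summed as 1 gene, the pair was at 57.9 and 87.0 FPKM in the controls and at 60.8 and 73.0 FPKM in the knockdown samples, a log2 fold change of -0.09 ± 0.24 (SE, adjusted p = 0.994, limma), and the groups overlapped. Reads of both genes come from the same positions, so how they were divided between the 2 symbols cannot be told from these values.

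Both listed transcripts of U2AF1 carry 1 of 2 mutually exclusive coding exons of 67 bases. The pair is shown because all of the protein-coding FPKM of U2AF1 divides between them. The exons, read from GRCh37 on the minus strand and written 5′ to 3′, share 44 of 67 bases, and capitals mark the 23 bases that differ.
Upstream exon, chr21:44521476-44521542: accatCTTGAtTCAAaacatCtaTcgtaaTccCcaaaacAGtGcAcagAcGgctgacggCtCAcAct
Downstream exon, chr21:44520563-44520629: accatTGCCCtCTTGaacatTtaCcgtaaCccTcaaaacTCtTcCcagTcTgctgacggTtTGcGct

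The transcript with the downstream exon (ENST00000291552.8_1) was the larger in every sample, at 37.6 and 30.3 FPKM in the controls and at 42.5 and 49.8 FPKM in the knockdown samples. The transcript with the upstream exon (ENST00000380276.6_1) was at 16.1 and 1.12 FPKM in the controls and at 11.6 and 21.7 FPKM in the knockdown samples. Its share of U2AF1 was 30.0% and 3.56% in the controls and 21.5% and 30.4% in the knockdown samples, so 1 shCtrl sample stood apart and the other lay among the knockdown samples. That low sample was the one in which U2AF1L5 took 55.6 FPKM, and the part of U2AF1L5 in the exon share was not tested.

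**Figure D3:**
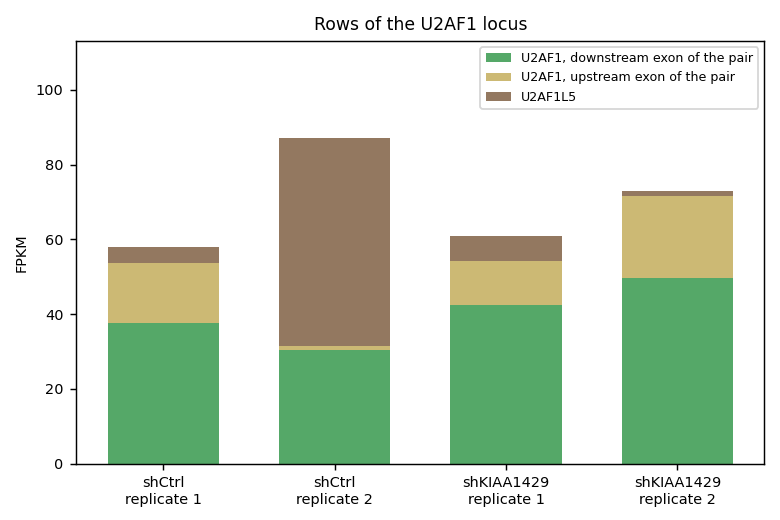
FPKM of the 3 listed transcripts of the U2AF1 locus in each sample, stacked: U2AF1 with the downstream or the upstream of its 2 exclusive exons, and U2AF1L5. In shCtrl replicate 2 U2AF1L5 takes 55.6 FPKM and the upstream-exon transcript of U2AF1 1.12 FPKM, while the 4 stacks reach 57.9, 87.0, 60.8 and 73.0 FPKM.

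The SF3A and SF3B complexes, which grip the U2 snRNP and the branch site, had overlapping groups throughout. This held for all 9 genes, where 7145 of 10781 genes tested had overlapping groups. The median log2 fold change was 0.01, and the 9 values ran from -0.10 to 0.18. SF3B1, the branch-site clamp, was at 25.6 and 25.8 FPKM in the controls and at 24.0 and 26.4 FPKM in the knockdown samples. SF3B2 was the most abundant of them, at 105 and 116 FPKM in the controls and 96.8 and 114.6 FPKM in the knockdown samples. SF3B4 was at 63.5 and 89.5 FPKM in the controls and at 65.3 and 88.7 FPKM in the knockdown samples. In SF3B4 the replicates of a group differed by far more than the group means did, 76.5 ± 18.4 against 77.0 ± 16.6 FPKM (SD, n = 2 each).

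Among the proteins of the U1 and U2 snRNPs, 1 of 5 genes was higher without overlap, against 16.6% of all genes tested. None was lower without overlap, against 17.1%, and none passed the test. SNRNP70, which holds U1 RNA and contacts SR proteins, was at 53.9 and 71.4 FPKM in the controls and at 50.8 and 60.8 FPKM in the knockdown samples. SNRPC, which steadies the pairing of U1 with the 5′ splice site, was at 82.6 and 100.5 FPKM in the controls and at 83.4 and 83.1 FPKM in the knockdown samples. Both genes had overlapping groups, with the top value in shCtrl replicate 2. SNRPA, which binds a stem-loop of U1 RNA, was named after its values were seen, as the gene without overlap: 27.5 and 27.7 FPKM in shCtrl against 39.0 and 30.0 FPKM in the knockdown samples, a log2 fold change of 0.30 ± 0.17 (SE, adjusted p = 0.928, limma).

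The Sm proteins form a ring of 7 different subunits on the U1, U2, U4 and U5 snRNAs, yet their transcripts covered a wide range of levels. SNRPB, which encodes the SmB subunits, had a mean of 176 FPKM, 34.7 times that of SNRPD1 (SmD1) at 5.07 FPKM, both as levels per length; SNRPD1 and SNRPN are named after their values were seen. SNRPB was at 166 and 199 FPKM in the controls and at 153 and 186 FPKM in the knockdown samples. SNRPD2 (SmD2) was at 79.0 and 62.6 FPKM in the controls and at 55.8 and 65.4 FPKM in the knockdown samples. Neither gene separated the groups. Over all 10781 genes tested, the median log2 fold change was -0.012 and 5664 were negative. Of the 8 Sm genes, 7 were negative, also under upper quartile scaling, with a median of -0.11. Without shKIAA1429 replicate 1 only 1 was negative and the median was 0.10, and without shCtrl replicate 2 the count was 2 and the median 0.04. The exception, SNRPN, which encodes the SmB-like SmN protein, was at 16.5 and 11.8 FPKM in the controls and at 16.7 and 17.4 FPKM in the knockdown samples. SNRPN shares its transcription unit and strand with SNURF, so its reads are uncertain.

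The 3 tri-snRNP genes had overlapping groups, as did 7145 of 10781 genes tested. Their median log2 fold change was -0.05. SNRNP200, the helicase that unwinds U4 from U6, was at 45.9 and 48.5 FPKM in the controls and at 44.6 and 48.0 FPKM in the knockdown samples, with an interval of the log2 fold change from -0.35 to 0.30. SNRNP40, a U5 protein, was at 29.1 and 44.8 FPKM in the controls and at 27.0 and 43.3 FPKM in the knockdown samples. Here the difference between replicates of a group was large and nearly the same in both groups.

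Of the 3 minor spliceosome genes, 1 was higher and 1 lower without overlap, against 16.6% and 17.1% of all genes tested. None passed the test. SNRNP25 was at 15.6 and 13.0 FPKM in the controls and at 5.65 and 20.7 FPKM in the knockdown samples, so both the lowest and the highest sample were knockdown samples. Without the low one its log2 fold change turned from -0.34 to 0.51, and with a further transcript of the gene, not listed as protein-coding and at 3.99 FPKM in that sample only, it was -0.0037. SNRNP35 was at 3.33 and 3.33 FPKM in the controls and at 2.71 and 3.10 FPKM in the knockdown samples, a log2 fold change of -0.15 ± 0.15 (SE, adjusted p = 0.969, limma). SNRNP48, named after its values were seen, was at 2.64 and 2.73 FPKM in the controls and at 3.10 and 3.53 FPKM in the knockdown samples, a log2 fold change of 0.23 ± 0.15 (SE, adjusted p = 0.943, limma).

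In the SR family, 1 of 11 genes was higher without overlap, against 16.6% of all genes tested, and 1 was lower, against 17.1%. None passed the test. Over all 10781 genes tested, the median log2 fold change was -0.012 and 5664 were negative. Of the 11 SR genes, 10 were negative, also under upper quartile scaling, with a median of -0.16. Without shKIAA1429 replicate 1 only 4 were negative and the median was 0.08, and without shCtrl replicate 2 the count was 6 and the median -0.02. SRSF1, the founding SR protein, was at 26.4 and 33.5 FPKM in the controls and at 23.4 and 32.6 FPKM in the knockdown samples. SRSF3, which the reader YTHDC1 recruits, was at 19.0 and 23.0 FPKM in the controls and at 16.1 and 21.4 FPKM in the knockdown samples. SRSF10, which YTHDC1 keeps from its sites, was at 8.34 and 8.49 FPKM in the controls and at 7.10 and 9.54 FPKM in the knockdown samples. All 3 had overlapping groups with the lowest value in shKIAA1429 replicate 1.

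SRSF9, the most abundant SR gene, was at 133 and 112 FPKM in the controls and at 81.0 and 113 FPKM in the knockdown samples, a log2 fold change of -0.35 ± 0.20 (SE, adjusted p = 0.936, limma). A single knockdown sample carried the difference, since the other lay between the controls. SRSF2, which binds both C-rich and G-rich enhancers, was at 16.4 and 32.6 FPKM in the controls and at 10.6 and 28.2 FPKM in the knockdown samples. Its transcript ENST00000508921.7_1 accounted for most of the gap between replicates, at 9.0 and 24.0 FPKM and at 1.90 and 24.0 FPKM. SRSF4, named after its values were seen, was at 6.23 and 24.0 FPKM in the controls and at 8.11 and 6.90 FPKM in the knockdown samples, and without the high control sample its log2 fold change turned from -0.67 to 0.23.

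SRSF11, an SR-related protein of nuclear speckles, had the largest positive log2 fold change of the 63 genes by its protein-coding transcripts, though it did not pass the test. It was at 5.80 and 4.94 FPKM in the controls and at 8.35 and 10.6 FPKM in the knockdown samples, a log2 fold change of 0.71 ± 0.18 (SE, 95% interval 0.23 to 1.19, adjusted p = 0.671, limma). The difference lay in 1 transcript, ENST00000395136.6_2, at 1.97 and 0.40 FPKM in the controls and at 5.33 and 6.65 FPKM in the knockdown samples. This transcript had a log2 fold change of 1.77 ± 0.45 (SE, adjusted p = 0.575, limma over 24996 transcripts), which stayed between 1.23 and 2.32 when any 1 sample was left out. The other protein-coding transcripts of SRSF11 together were at 3.83 and 4.55 FPKM in the controls and at 3.02 and 3.91 FPKM in the knockdown samples, with overlapping groups. A further 6 transcripts of the gene, not listed as protein-coding, held 53.0% to 75.5% of its FPKM depending on the sample. With them SRSF11 was at 18.0 and 20.1 FPKM in the controls and at 18.4 and 22.5 FPKM in the knockdown samples, a log2 fold change of 0.09 ± 0.17 (SE, adjusted p = 0.993, limma), and the groups overlapped.

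In the annotation, this SRSF11 transcript alone among the 4 protein-coding ones carries a 21-base extension of a coding exon at chr1:70715614-70715634 (GRCh37, plus strand), shown because both possible acceptors, before and at the end of it, read AG. Capitals mark the extension and lower case the 20 bases on either side.
SRSF11 extension: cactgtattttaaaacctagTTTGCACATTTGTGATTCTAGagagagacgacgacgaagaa

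Transcripts with the extension made up 33.9% and 8.01% of the protein-coding FPKM of SRSF11 in the controls and 63.8% and 63.0% in the knockdown samples. Both knockdown samples were above both controls, and the controls differed from each other by more than the knockdown samples did. The position of this transcript in the files ends at 70716075, short of its end in the annotation used for its exons, so the extension is that of the annotated model.

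The hnRNP genes were the largest set. Of 21 genes, 3 were higher without overlap (HNRNPA1, HNRNPC and HNRNPDL), against 16.6% of all genes tested. Lower without overlap were 2 (HNRNPH2 and HNRNPLL), against 17.1%. None passed the test, and the median log2 fold change was -0.02. HNRNPL was at 167.4 and 199.99 FPKM in the controls and at 167 and 189 FPKM in the knockdown samples. HNRNPK, a poly(C)-binding protein, was at 162 and 179 FPKM in the controls and at 148 and 184 FPKM in the knockdown samples. Groups overlapped for both of these abundant genes.

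The 2 hnRNP genes tied to m6A did not pass the test. HNRNPC, whose U-tract sites become accessible where m6A opens a hairpin, was at 123 and 130 FPKM in the controls and at 147 and 135 FPKM in the knockdown samples, a log2 fold change of 0.15 ± 0.11 (SE, adjusted p = 0.957, limma). HNRNPA2B1 was at 124 and 123 FPKM in the controls and at 108 and 135 FPKM in the knockdown samples, with a log2 fold change of -0.024 and an interval from -0.41 to 0.37. Both knockdown samples of HNRNPC were above both controls, whereas the 2 shKIAA1429 samples of HNRNPA2B1 enclosed both controls. HNRNPC had 17 protein-coding transcripts, the most of any splicing gene, and the FPKM of single transcripts differed from sample to sample. Transcript ENST00000555309.5_1 was at 15.6 and 36.3 FPKM in the controls and at 46.4 and 15.3 FPKM in the knockdown samples, and ENST00000555914.5_1, which covers nearly the same stretch, was at 26.7 and 6.39 FPKM and at 17.0 and 30.5 FPKM. The samples high in one were low in the other. Their sum was not constant, at 42.3 and 42.7 FPKM in the controls and at 63.4 and 45.9 FPKM in the knockdown samples.

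HNRNPA1, a general splicing repressor named here after its values were seen, was at 151 and 152 FPKM in the controls and at 159 and 172 FPKM in the knockdown samples, a log2 fold change of 0.13 ± 0.11 (SE, adjusted p = 0.964, limma). Its leading transcript, ENST00000340913.10_1, was at 71.99 and 73.7 FPKM in the controls and at 100.8 and 96.0 FPKM in the knockdown samples, with a log2 fold change of 0.43 ± 0.10 (SE, adjusted p = 0.546, limma). The replicates of each group lay within 5 FPKM of each other, and the groups were apart. The other protein-coding transcripts of HNRNPA1 were together at 78.6 and 78.7 FPKM in the controls and at 57.8 and 76.4 FPKM in the knockdown samples, so both knockdown samples were below both controls there. They include ENST00000550994.1_1, listed as protein-coding but annotated as nonsense-mediated decay. It was at 10.5 and 10.4 FPKM in the controls and at 3.73 and 10.4 FPKM in the knockdown samples.

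HNRNPU, which binds nuclear scaffold RNA and was also named after its values were seen, was at 36.7 and 24.0 FPKM in the controls and at 29.4 and 55.8 FPKM in the knockdown samples. Its log2 fold change of 0.44 ± 0.37 (SE, adjusted p = 0.964, limma) became -0.014 without the high knockdown sample.

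The second comparison asked the same question of single transcripts. Of the 217 protein-coding transcripts, 173 passed the filter, and 0 of them passed both thresholds, as did 0 of 24996 transcripts of the whole table (0%). The smallest adjusted p among them was 0.277 (limma), for an HNRNPU transcript under 2 FPKM in every sample. At an unadjusted p under 0.05, 3 were higher, against 3.1% of all transcripts, and 2 were lower, against 3.18%. The log2 fold change exceeded 1 for 8 transcripts, 4.62% against 3.31%, and lay under -1 for 2, 1.16% against 3.92%. Both shKIAA1429 samples were above both controls for 25 transcripts, against 16.7% of all, and below for 18, against 16.8%. None of these counts concerns the 44 transcripts under the filter.

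The rule for naming, a mean of at least 5 FPKM in either group, an absolute log2 fold change over 1 and groups that did not overlap, was met by 4 transcripts: that of SRSF11 given above and 1 each of HNRNPD, HNRNPDL and HNRNPUL1. In the latter 3, the size of the difference hung on 1 sample.

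HNRNPD (AUF1), which binds AU-rich elements as well as pre-mRNA, was at 78.8 and 90.2 FPKM in the controls and at 60.7 and 94.6 FPKM in the knockdown samples. Its transcript ENST00000507010.5_1 was at 13.4 and 11.6 FPKM in the controls and at less than 0.001 and 8.37 FPKM in the knockdown samples, a log2 fold change of -2.14 ± 1.19 (SE, adjusted p = 0.973, limma). The near-zero value stood in 1 knockdown sample, without which the log2 fold change was -0.52. The gene has 2 optional coding exons, whose combinations give 4 protein forms. Exon 2 (57 bases, chr4:83292681-83292737, GRCh37, minus strand) was included in transcripts with 48.0% and 52.0% of FPKM in the controls and 70.7% and 41.6% in the knockdown samples. Exon 7 (147 bases, chr4:83277690-83277836) was included at 70.5% and 68.3% in the controls and at 59.0% and 74.8% in the knockdown samples, counting only the transcripts that span it. For both exons the 2 knockdown samples lay on opposite sides of the controls.
The exon is shown because its share ran from 41.6% to 70.7%, with capitals for its bases and lower case for 20 bases on either side.
HNRNPD exon 2: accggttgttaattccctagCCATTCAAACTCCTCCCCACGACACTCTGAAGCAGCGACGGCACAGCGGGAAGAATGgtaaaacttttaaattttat

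HNRNPDL, a relative of HNRNPD, was at 30.5 and 25.6 FPKM in the controls and at 31.0 and 35.8 FPKM in the knockdown samples, a log2 fold change of 0.25 ± 0.16 (SE, adjusted p = 0.94, limma). Transcript ENST00000602300.5_1 was at 9.90 and 0.02 FPKM in the controls and at 11.8 and 11.02 FPKM in the knockdown samples, a log2 fold change of 1.89 ± 1.25 (SE, adjusted p = 0.973, limma). Here the near-zero value stood in a control sample, and without it the log2 fold change was 0.18. The other protein-coding transcripts of HNRNPDL were at 20.6 and 25.6 FPKM in the controls and at 19.2 and 24.8 FPKM in the knockdown samples, with overlapping groups.

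HNRNPUL1, which acts at DNA ends as well as on RNA, was at 106 and 123 FPKM in the controls and at 120 and 135 FPKM in the knockdown samples. Transcript ENST00000263367.7_2 was at 34.1 and 14.1 FPKM in the controls and at 50.8 and 58.4 FPKM in the knockdown samples, a log2 fold change of 1.27 ± 0.46 (SE, adjusted p = 0.808, limma), and 0.66 without shCtrl replicate 2. The other protein-coding transcripts were at 71.9 and 108 FPKM in the controls and at 69.3 and 76.6 FPKM in the knockdown samples. In the control sample where the named transcript was low, transcript ENST00000595018.5_1 was high, at 62.2 FPKM against 27.3 to 33.5 FPKM in the other 3 samples. The named transcript begins its coding sequence in an exon of its own, of which 28 coding bases lie at chr19:41771221-41771248 (GRCh37, plus strand). They are shown in capitals from the start codon to the splice donor, with 20 bases in lower case on either side.
HNRNPUL1 start: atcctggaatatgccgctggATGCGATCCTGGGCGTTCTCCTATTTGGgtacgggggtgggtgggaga

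Of the HNRNPUL1 transcripts that span this stretch, the one with it held 32.4% and 11.6% of FPKM in the controls and 42.8% and 43.9% in the knockdown samples. As with SRSF11, the 2 knockdown samples lay close together and the 2 controls did not.

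**Figure D4:**
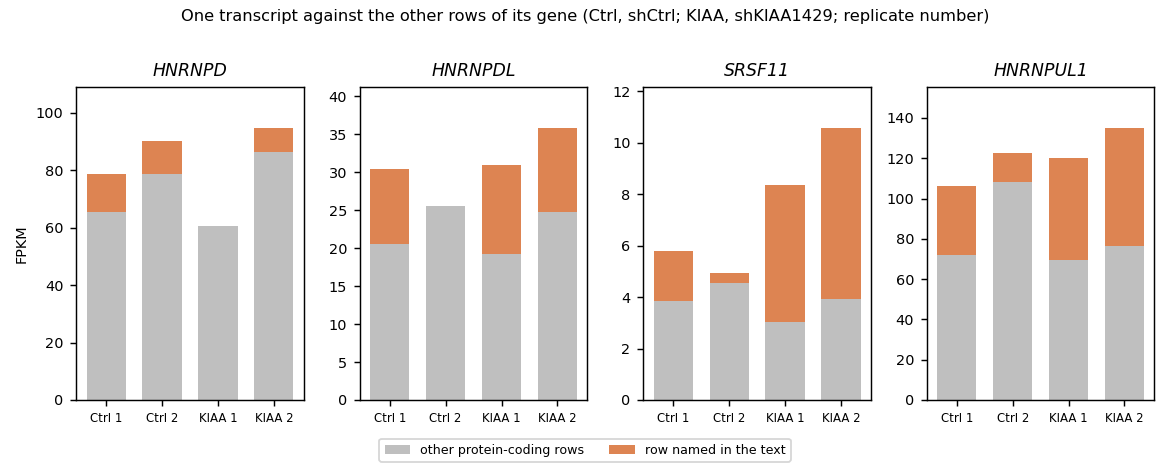
FPKM of HNRNPD, HNRNPDL, SRSF11 and HNRNPUL1 in each sample (Ctrl, shCtrl; KIAA, shKIAA1429; replicate number), stacked as the transcript named in the text (orange) on the other protein-coding transcripts of the gene (grey). The orange part is missing in shKIAA1429 replicate 1 for HNRNPD and in shCtrl replicate 2 for HNRNPDL, and is larger in both shKIAA1429 samples for SRSF11 and HNRNPUL1.

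Across the set, most genes kept their leading transcript. Of the 63 genes, 17 had 1 protein-coding transcript and 46 had at least 2, and in 37 of the 46 the same transcript led in all 4 samples. In 9 genes the lead changed between samples. No share over all genes is given beside these counts, so they are not read as particular to the set. The median absolute difference between replicates of log2(FPKM + 1) was 0.25 in the controls and 0.35 in the knockdown samples over their transcripts tested. Over all transcripts tested it was 0.27 and 0.30. For the splicing genes it was 0.24 and 0.29, beside 0.195 and 0.204 over all genes tested.

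The splicing genes shared a pattern between replicates. FPKM was higher in replicate 2 than in replicate 1 in both groups for 45 of 63 genes, 71.4% of the set, where 34.1% of all genes tested did so. It was lower in replicate 2 in both groups for 2 genes, SF3B6 and SRSF5, against 32.1% of all genes. The median difference of log2(FPKM + 1) between replicates 2 and 1 was 0.18 in the controls and 0.24 in the knockdown samples, beside -0.0027 and 0.018 over all genes. The labels name no batch behind the replicate numbers, and no test was made of this pattern, which was noticed in these values. In shKIAA1429 replicate 1, 37 of 63 splicing genes had their lowest value, against 31% of all genes, and in shCtrl replicate 2 and shKIAA1429 replicate 2, 28 genes each had their highest, against 27.2% and 23.4% of all genes. By role, the replicate 2 samples were higher in both groups for 8 of 9 SF3A and SF3B genes, 15 of 21 hnRNP genes, 7 of 11 SR genes, 6 of 8 Sm genes, 3 of 5 U1 and U2 snRNP genes, 3 of 3 tri-snRNP genes, 2 of 3 minor spliceosome genes and 1 of 3 U2AF genes.

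**Figure D5:**
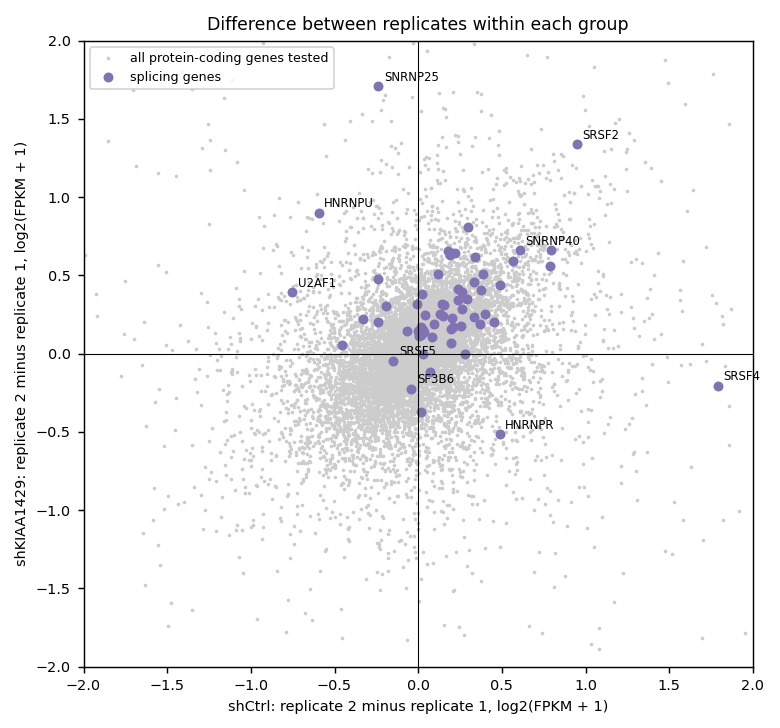
Difference of log2(FPKM + 1) between replicates 2 and 1 within shCtrl (x axis) and within the knockdown samples (y axis) for the 63 splicing genes (purple) and all 10781 genes tested (grey); 53 genes, U2AF1L5 among them, lie outside the axes. The purple points gather in the upper right, where replicate 2 is the higher sample in both groups (45 of 63).

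The wider machinery gave no call either. A further 115 splicing genes were listed, of the catalytic core, branch site and 5′ splice site factors, and LSm and assembly proteins. SR-like proteins with their kinases and other regulators were also among them. By gene identifier 112 entries were tested, MATR3 more than once, and 0 passed both thresholds. At an unadjusted p under 0.05 in limma, 2 of the 112 were higher, against 3.11% of all genes, and 0 were lower, against 2.82%. Without overlap, 9 were higher (8.04%, against 16.6% of all genes) and 13 lower (11.6%, against 17.1%), and the median log2 fold change was -0.04. By a rule that took the 2 highest and 2 lowest log2 fold changes among genes with a mean of at least 5 FPKM and groups apart, TARDBP, RBM17, PDCD7 and LSM5 are named. TARDBP, an RNA-binding protein that represses cryptic exons, was at 13.2 and 16.6 FPKM in the controls and at 12.8 and 8.22 FPKM in the knockdown samples (log2 fold change -0.49 ± 0.25, SE). RBM17, a U2-associated regulator of 3′ splice site choice, was at 23.1 and 26.2 FPKM in the controls and at 20.8 and 16.9 FPKM in the knockdown samples (-0.37 ± 0.16, SE). Both fell short of the test, as did the 2 with the highest values under this rule. PDCD7, a protein of the minor U11/U12 snRNP, was at 8.66 and 8.10 FPKM in the controls and at 11.3 and 11.3 FPKM in the knockdown samples (0.39). LSM5, of the ring on U6, was at 4.69 and 5.69 FPKM in the controls and at 5.81 and 8.27 FPKM in the knockdown samples (0.36). Replicate 2 was the higher sample in both groups for 66 of the 112.

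Many splicing factor genes limit their own level by making transcripts that are decayed or keep an intron. Among the listed transcripts of the 63 genes, 7 are annotated as nonsense-mediated decay or retained intron, from SF3B1, HNRNPA2B1, SRSF11, HNRNPR, HNRNPA1 and 2 of HNRNPH1. They held 0.637% and 0.580% of the FPKM of these genes in the controls and 0.449% and 0.668% in the knockdown samples. The difference of -0.05 percentage points gave p = 1 in a two-sided exact permutation test. With 2 against 2 samples this test cannot go below 0.33, so it cannot decide whether the groups differ. As a median over genes of the share within a gene, the difference was -0.41 percentage points. The low knockdown sample was the one in which the decay transcript of HNRNPA1, ENST00000550994.1_1, stood at 3.73 FPKM, against 10.4 or 10.5 FPKM in the other 3. Of the 7 transcripts, 3 are listed as protein-coding and are part of the sums per gene. The share leaves out 40 further transcripts of the 63 genes, annotated without a defined coding sequence. Together these were at 87.0 and 101.8 FPKM in the controls and at 76.7 and 91.7 FPKM in the knockdown samples. Whether they limit the level of their genes was not tested.

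Of the 63 genes, 15 overlap another listed gene, 7 of them on the same strand. Besides U2AF1, U2AF1L5 and SNRPN these are HNRNPH2, SRSF1, HNRNPL and HNRNPA1L2, and their values can hold reads of the partner. The 8 that overlap on the opposite strand only are SF3A1, SNRPD3, SF3A2, HNRNPUL1, SRSF9, SRSF2, SNRNP25 and HNRNPAB. The paper's RNA-seq methods describe no strand-specific step, so these may hold reads of the partner too. HNRNPA1L2 is moreover an intronless copy of HNRNPA1.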

How the data were processed

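RNA of 4 HCCLM3 samples was sequenced, and titles gave the group and number of each sample. The deposited files give FPKM per annotated transcript, and the tool the authors made them with is not given in the sources used here; the submitters' processing notes name Bowtie2 2.1.0 and hg19. The methods describe TopHat alignment, HTSeq gene counts and a count model, another measure than the files hold. The design therefore used its rule for FPKM in place of a count test. Listed transcripts all exceeded 0.5 FPKM in some sample (lowest maximum 0.504). FPKM depends on the total mapped, so abundant RNAs shift the rest, and the division of reads among overlapping transcripts is an estimate. Depth is unknown, and no interval that needs it is given.

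FPKM of protein-coding rows were summed per gene. Genes or transcripts with at least 1 FPKM in at least 2 samples were compared on log2(FPKM + 1), which understates changes of low genes, with limma 3.58.1 (trend, two-sided, Benjamini-Hochberg over the whole table) in R 4.3.3. Of 263 rows of the 63 genes, 260 matched GENCODE 44 lifted to GRCh37, from which exons were taken, and sequences came from the GRCh37 genome. The limma script was tested on simulated data. Members, lists and roles were chosen with earlier results of these data known. Named genes were the 2 most abundant of each role, those with a mean of at least 5 FPKM, a log2 fold change over 0.5 and groups apart, and core or m6A-linked factors; the wider list had its own rule, given with it, and exceptions are stated. Alternatives were other scaling, filters, pseudocount and row sets, a replicate block, robust variance and leaving out each sample.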

Additional observations from a re-analysis of the deposited data

How the results depend on the processing

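No splicing gene or transcript passed both thresholds under any alternative that kept the test, including each of the 4 fits that left out 1 sample; a log2 fold change over 1 without a test gave 1 gene, U2AF1L5. The counts of genes without overlap changed with 1 sample left out. Those higher ran from 9 to 30 and those lower from 7 to 37, where a group of 1 sample overlaps less often by construction. Without shCtrl replicate 1, 29 genes were lower, and without shKIAA1429 replicate 2, 37. Without shKIAA1429 replicate 1, 30 were higher, and without shCtrl replicate 2, 21. The share of all genes tested was not computed for these fits. Whether these counts differ from the background was therefore not tested. The median log2 fold change of the 63 genes ran from -0.19 to 0.12 over the same fits and from -0.044 to -0.015 over the other alternatives. Among the 16 genes whose log2 fold change was followed singly, it reversed without 1 sample for SRSF4 (0.23 without shCtrl replicate 2, range -1.56 to 0.23), SNRNP25 (0.51 without shKIAA1429 replicate 1, range -1.20 to 0.51) and HNRNPU (-0.014 without shKIAA1429 replicate 2, range -0.014 to 0.89), and for U2AF1 when summed with U2AF1L5 (-0.091), an alternative chosen after seeing the data. By role, without shKIAA1429 replicate 1 the negative values fell from 7 to 1 of 8 Sm genes and from 10 to 4 of 11 SR genes, and without shCtrl replicate 2 to 2 and 6. The share of decay and retained-intron transcripts differed by -0.41 percentage points as a median over genes, against -0.05 as a pooled share; the cause was not tested. A replicate block left 0 genes and 0 transcripts past the thresholds and a median of -0.042; same-numbered samples deviated together with a correlation of 0.29 across genes, but 2 pairs without a labelled batch do not show that the numbers pair the samples. The 2 samples per group and an unknown depth limit all values.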
